A study of Mus musculus with 8 samples.

Results

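Vim and 4 simple epithelial keratin genes, Krt7, Krt8, Krt18 and Krt19, were followed in IMCD cells, a mouse line from the inner medullary collecting duct of the kidney, with and without extra salt. They were chosen by gene symbol from a table of 15288 genes, and all 5 have a row in it and passed the expression filter. The control cells (libraries 1 to 4) spent 12 h in DMEM without serum, and the NaCl cells (libraries 5 to 8) spent the same 12 h in it with 100 mmol NaCl added, in a volume that the labels do not give. The numbers 1 to 8 come from the sample titles, and no source used here says whether they mark an order of culture, extraction or sequencing, or whether libraries of a group came from separate cultures. The p-values below therefore measure the spread between these libraries. Library totals ran from 35.29 to 47.57 M counts. The lowest count of any of the 5 genes in any library was 1445. Group values are means ± SD over the 4 libraries of a group.

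Intermediate filaments are rope-like cytoskeletal polymers that give cells mechanical strength. Keratin filaments form from obligate pairs of a type II protein (Krt7, Krt8) with a type I protein (Krt18, Krt19), and the Krt8 and Krt18 pair is the basic set of simple epithelia such as the renal tubule, with Krt7 and Krt19 typical of ducts. Vimentin, encoded by Vim, is a type III protein that assembles with itself. It is typical of mesenchymal cells and is also made by many cultured epithelial cells.

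Of the 5 genes, Vim alone had an adjusted p-value under 0.05 between the groups. It fell by 28.3% with NaCl, and none of the 4 keratins passed the test. That is 1 of 5 genes, where 34.1% of all 14024 tested genes passed (17.2% lower and 16.9% higher). The keratins instead differed between libraries of the same group, and a slope fitted along the library number within the groups was upward for each of them. With the library number in the fit, 2 or all 5 genes were called lower, depending on how the number was treated. A change in a bulk culture can come from fewer cells of a type or from less RNA per cell, and these cannot be told apart here.

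The genes lie at 3 places in the mouse genome (GENCODE M21 annotation, GRCm38). Vim is on chromosome 2 from 13573927 to 13582826 on the + strand, and its principal transcript has 9 exons and 2193 bases. Krt7 (101411043 to 101430313, + strand), Krt8 (101996698 to 102004482, − strand) and Krt18 (102028180 to 102032027, + strand) are on chromosome 15, with 23697 bases between Krt8 and Krt18. Krt18 is the type I gene that lies next to the type II genes in this cluster, while Krt19 is on chromosome 11 from 100140810 to 100148665 on the − strand. The principal transcripts of Krt7, Krt8, Krt18 and Krt19 have 4094, 1958, 1437 and 1576 bases. No alignment of at least 75 bases at 98% identity to another gene's transcripts was found for Vim, Krt7, Krt18 or Krt19. Krt8 shares 51.8% of its transcript with Krt8-ps or with Gm36026, which overlaps it on the other strand, so its counts are uncertain. Gm36026 had at most 9 counts in any library, and Krt8-ps has no row in the table.

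The stretch around the transcription start is shown for 4 of the 5 genes, to set the gene that fell beside 3 keratins that did not pass the test (RefSeq promoter windows, GRCm38.p6, 5′ to 3′ on the gene's strand). Capitals mark the TATA box letters TATAAA, and the windows without these letters are shown from position -40 to -11 relative to the RefSeq start. The Vim window is chr2:13574267-13574296 (+ strand), Krt8 is chr15:102004326-102004355 (− strand), Krt7 is chr15:101412363-101412392 (+ strand) and Krt18 is chr15:102028176-102028205 (+ strand).
Vim: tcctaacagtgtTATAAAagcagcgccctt
Krt8: ggcctcttctttTATAAAgggccttcgctg
Krt7: tgtgtgcgctcagcctccgccccgcatgga
Krt18: ccctacctcctcccgcggcgatataacaac

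The windows searched ran from 250 bases before to 50 bases after the start, on both strands. TATAAA was found in Vim, from position -32, and in Krt8, on both strands in overlapping copies, from -1 on the gene's own strand. It was in 13.6% of all 32851 promoter windows of that length. CCAAT, the CCAAT box, was found in Vim alone of the 4 (2 copies, from -196 and, reversed, from -94) and in 37.4% of all windows. GGGCGG, the GC box, was found in Krt7 alone of the 4 (4 copies) and in 35.7% of all windows. Neither TGANTCA, the AP-1 site, nor TGGAAA, the core recognised by the tonicity factor Nfat5, was found in the 4 windows, against 7.8% and 21.4% of all. GENCODE M21 places the outermost 5′ end of each of these 4 genes upstream of the RefSeq start (for Krt8 at 102004482 and for Vim at 13573927), so the positions given hold for the RefSeq starts. The motifs are matches of letters and do not show a bound factor.

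Vim, the type III gene, had 2284, 2154, 2191 and 2191 CPM (counts per 1 M counts, with library sizes scaled by TMM factors) in control libraries 1 to 4. In NaCl libraries 5 to 8 it had 1469, 1647, 1641 and 1566 CPM. Every control library lay above every NaCl library, and the gap between the groups was wider than the spread inside either. Groups without overlap were found for 33.4% of tested genes. The means were 2205 ± 55.4 and 1581 ± 82.8 CPM (n = 4 each). The log2 fold change was -0.48 (SE 0.038; 95% interval -0.56 to -0.40), with an adjusted p-value of 5.58e-08 in edgeR's quasi-likelihood test. Vim took between 0.216% and 0.229% of all counts in control and between 0.149% and 0.166% in NaCl libraries. Of the 2418 genes called lower, 534 fell at least as far as Vim on the log2 scale. Tested against a fold change of 1.5 in place of no change, none of the 5 genes passed, where 2.34% of tested genes did.

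**Figure D1:**
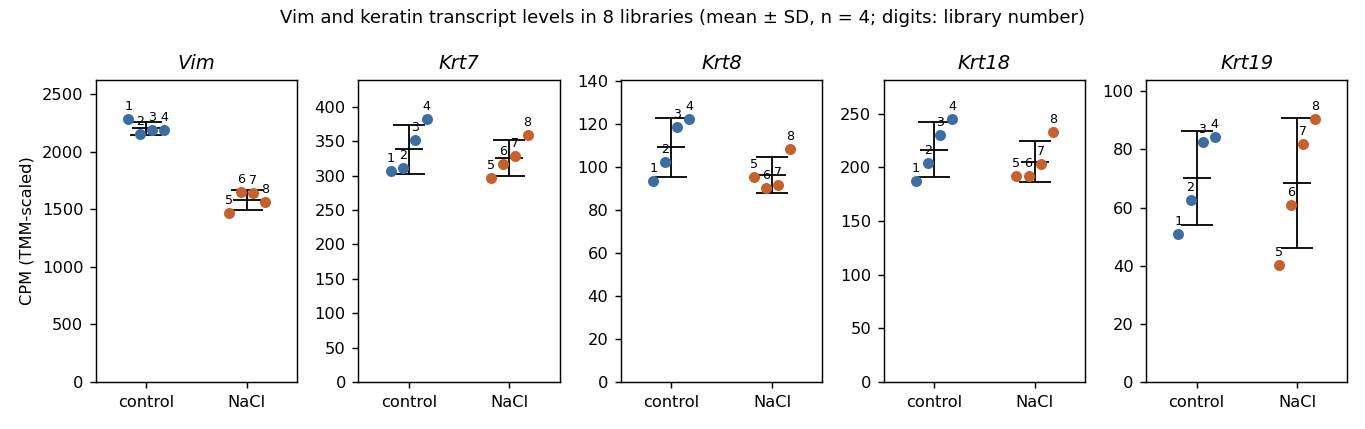
CPM of Vim, Krt7, Krt8, Krt18 and Krt19 (vertical axes from 0, each gene on its own scale) in the control and NaCl groups; points are libraries with their number, and bars give the mean and SD of 4 libraries. The Vim groups are apart (control at least 2154, NaCl at most 1647 CPM), while the groups of each keratin overlap.

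Krt7, a type II keratin of ducts and glands, was the keratin with the most counts. Its levels were 306.8, 311.6, 352.6 and 382.3 CPM in control libraries 1 to 4 and 296.5, 316.7, 328.2 and 359.3 CPM in NaCl libraries 5 to 8. Libraries 1 and 5 were the lowest and 4 and 8 the highest of their groups, and the groups overlapped over most of their range. The group means were 338 ± 35.8 and 325 ± 26.3 CPM (n = 4 each). The log2 fold change was -0.06 (SE 0.081; 95% interval -0.24 to 0.13; edgeR adjusted p = 0.643). In percent, the interval ran from -15.4 to 9.21.

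Krt8, the type II partner of Krt18, had 93.58, 102.3, 118.6 and 122.4 CPM in control libraries 1 to 4. The NaCl libraries 5 to 8 had 95.44, 90.17, 91.88 and 108.5 CPM. NaCl libraries 6 and 7 lay below all controls, and libraries 5 and 8 fell among them. The means were 109 ± 13.6 and 96.5 ± 8.32 CPM (n = 4 each). The log2 fold change was -0.18 (SE 0.094; 95% interval -0.39 to 0.04; edgeR adjusted p = 0.186). Leaving out each library in turn gave values from -0.25 to -0.12. Among these values, the call changed only without control library 1, the lowest control (-0.25, edgeR adjusted p = 0.0322). The value without NaCl library 8 was close to it (-0.24, edgeR adjusted p = 0.0619). The call of Krt8 also changed when the library number was in the fit, as given below.

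Krt18, the type I partner of Krt8, had 186.9, 204.3, 230.1 and 245.0 CPM in control libraries 1 to 4 and 192.3, 192.3, 203.4 and 233.0 CPM in NaCl libraries 5 to 8. All 4 NaCl values lay inside the range of the controls. The means were 217 ± 25.9 and 205 ± 19.2 CPM (n = 4 each). The log2 fold change was -0.08 (SE 0.098; 95% interval -0.30 to 0.15; edgeR adjusted p = 0.6).

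Krt19, a type I keratin that lacks most of the tail domain of the others, was the most variable of the 5 genes. It had 50.83, 62.47, 82.45 and 84.3 CPM in control libraries 1 to 4 and 40.31, 60.99, 82.01 and 90.4 CPM in NaCl libraries 5 to 8. The highest library exceeded the lowest by 1.66-fold in control and by 2.24-fold in NaCl cells, where the corresponding folds for Vim were 1.06 and 1.12. The means were 70.0 ± 16.2 and 68.4 ± 22.5 CPM (n = 4 each). The log2 fold change was -0.03 (SE 0.297; edgeR adjusted p = 0.955). With this spread the 95% interval ran from -0.75 to 0.69, which includes the value seen for Vim. With the library number centred within groups, the interval was -0.31 to 0.20 and did not include it. With the number as a line from 1 to 8, described below, the interval was -1.87 to -0.80, all lower than the value for Vim.

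Levels of different genes were compared per length, as CPM per kilobase of the principal transcript. In control cells these were 1005 ± 25.3 for Vim, 151 ± 18.1 for Krt18, 82.6 ± 8.75 for Krt7, 55.8 ± 6.96 for Krt8 and 44.4 ± 10.3 for Krt19 (n = 4 each). In NaCl cells the order was the same, with 721 ± 37.8, 143 ± 13.4, 79.4 ± 6.41, 49.3 ± 4.25 and 43.4 ± 14.3 (n = 4 each). The neighbours Krt8 and Krt19 overlapped in both groups, with 47.8 to 62.5 against 32.3 to 53.5 CPM per kilobase in control libraries. The other neighbours in this order did not overlap. The place of Krt7 depends on the transcript taken: over the union of all annotated exons (7049 bases) its control level was 48.0 CPM per kilobase, under the 55.8 of Krt8.

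Ratios inside a library do not depend on its total. The counts of Vim over those of the 4 keratins together were 3.58, 3.16, 2.80 and 2.63 in control libraries 1 to 4 and 2.35, 2.49, 2.33 and 1.98 in NaCl libraries 5 to 8. The groups did not overlap, but control library 4 and NaCl library 6 were close. Inside the control group this ratio fell from library 1 to library 4. A drift over the libraries and the treatment cannot be told apart in it. The counts of the type II keratins over the type I keratins were between 1.51 and 1.68 in control and between 1.45 and 1.69 in NaCl libraries, and the groups overlapped. Krt18 over Krt8, the 2 partners of the basic pair, was between 1.939 and 2.001 in control and between 2.02 and 2.21 in NaCl libraries, a separation of the groups by a narrow margin. Krt19 made up 7.965 to 10.52% of the 4 keratins' counts in control libraries and 6.455 to 11.63% of them in NaCl libraries. No test was applied to these ratios.

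**Figure D2:**
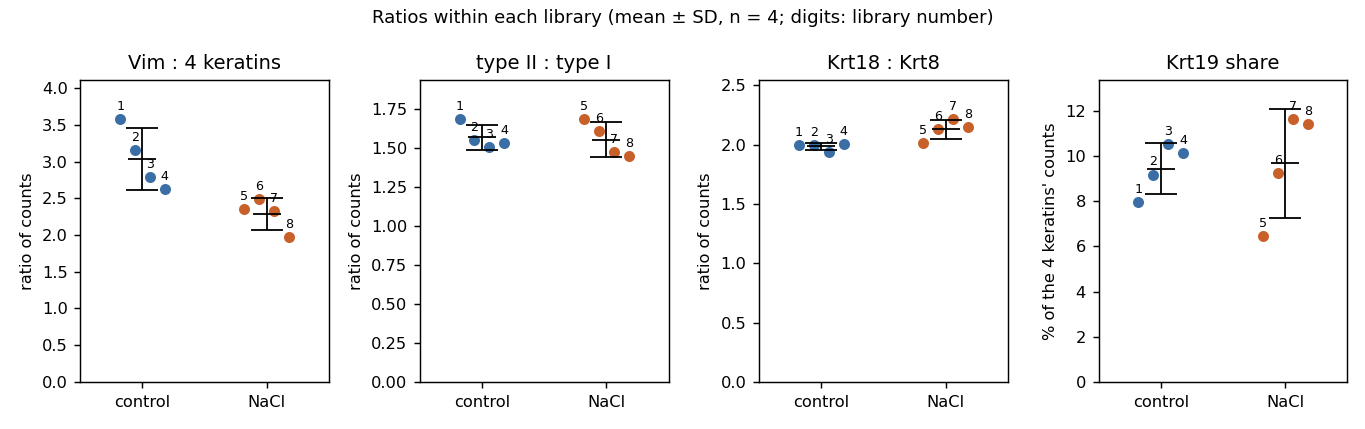
Ratios of counts within each library (vertical axes from 0) for Vim over the 4 keratins, type II over type I keratins and Krt18 over Krt8, and the share of Krt19 among the 4 keratins in %; points are libraries with their number, and bars give the mean and SD of 4 libraries. Vim over keratins was 3.04 ± 0.423 in control and 2.29 ± 0.219 in NaCl libraries.

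The spread of the keratins inside the groups went with the library number, least evenly for Krt8 in NaCl cells. There Krt8 had 95.44, 90.17 and 91.88 CPM in libraries 5 to 7, and library 8 alone stood higher (108.5 CPM). With the number centred within its group as a covariate, edgeR's quasi-likelihood test gave a slope with an adjusted p-value under 0.05 for 4 of the 5 genes, all 4 upwards. Of all tested genes, 13.2% passed, 6.95% upwards and 6.22% downwards. The slope was 0.10 log2 units per library number for Krt7 (95% interval 0.08 to 0.13; edgeR adjusted p = 3.93e-07) and 0.11 for Krt18 (0.08 to 0.14; 5.35e-07). For Krt8 it was 0.10 (0.06 to 0.14; 0.00303), and for Krt19 it was the steepest at 0.32 (0.20 to 0.44; 0.00827). The slope of Vim was 0.01 (-0.02 to 0.03; edgeR adjusted p = 0.878). A test of whether the slope differed between control and NaCl cells passed for none of the 5 genes (lowest edgeR adjusted p = 0.586), and for 0.0927% of tested genes. This slope test was chosen after the data had been seen. Since no source gives the numbers as an order, the slopes describe the spread between libraries of a group and not a course in time.

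**Figure D3:**
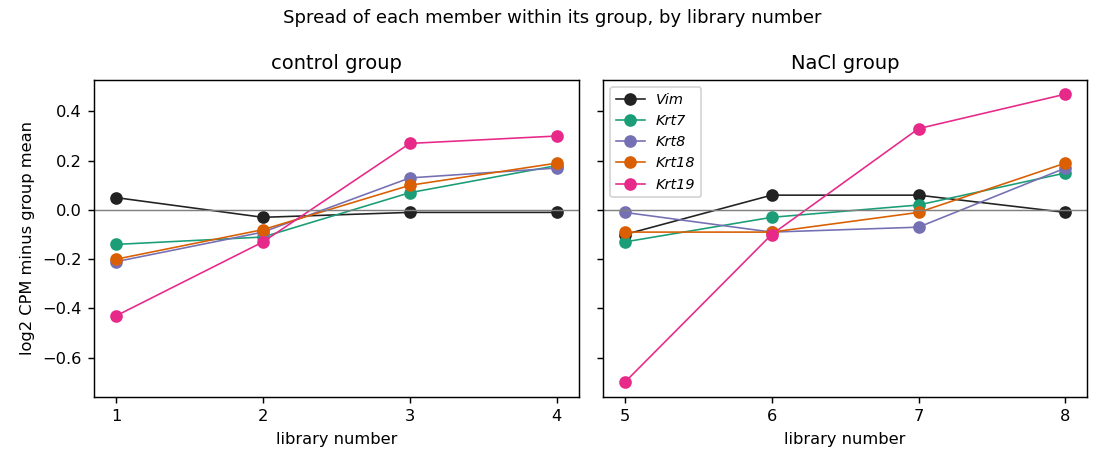
Log2 CPM minus the mean of the library's own group (vertical axis) against the library number (horizontal axis), for control libraries on the left and NaCl libraries on the right; lines join the points of a gene. Krt19 runs from -0.43 to 0.30 among control libraries and from -0.70 to 0.47 among NaCl libraries. Krt7 and Krt18 run less steeply the same way, and Vim stays between -0.10 and 0.06. Krt8 runs from -0.21 to 0.17 among control libraries, but among NaCl libraries only library 8 (0.17) lies above the group mean.

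Other values of the libraries are given beside these slopes. Mitochondrially encoded genes took 1.43, 1.46, 1.38 and 1.32% of counts in libraries 1 to 4 and 1.65, 1.48, 1.47 and 1.39% in libraries 5 to 8. The 10 most abundant genes took 4.72, 4.88, 5.13 and 5.25% in libraries 1 to 4 and 4.66, 4.83, 5.03 and 5.35% in libraries 5 to 8. For comparison, the summed level of the 4 keratins was 638, 681, 784 and 834 CPM in libraries 1 to 4 and 625, 660, 706 and 791 CPM in libraries 5 to 8. The part of these library features in the keratin levels was not tested.

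The calls for the keratins depended on how the library number was treated. With the number centred within groups, so that the slope is taken out of the error but not out of the group difference, Krt8 fell by 0.17 on the log2 scale (SE 0.046; edgeR adjusted p = 0.00492) together with Vim (-0.48; 3.88e-12). Krt18 (-0.07; 0.0523), Krt7 (-0.06; 0.103) and Krt19 (-0.06; 0.706) did not pass. This made 2 of 5 genes, where 43.0% of tested genes were called in that fit, 22.0% lower. With the number as a straight line from 1 to 8 across both groups, all 5 genes were called lower, where 24.1% of tested genes were called, 12.6% lower. The log2 fold changes were then -0.50 for Vim, -0.46 for Krt7, -0.57 for Krt8, -0.53 for Krt18 and -1.34 for Krt19, with edgeR adjusted p-values of 1.73e-06, 6.79e-08, 1.46e-04, 5.98e-08 and 0.0066. That fit extends the slope seen inside the groups over the 4 numbers that separate them. All controls carry low and all NaCl libraries high numbers, so a drift over all 8 libraries and the treatment cannot be told apart. The value of Vim was between -0.50 and -0.48 in all 3 fits.

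**Figure D4:**
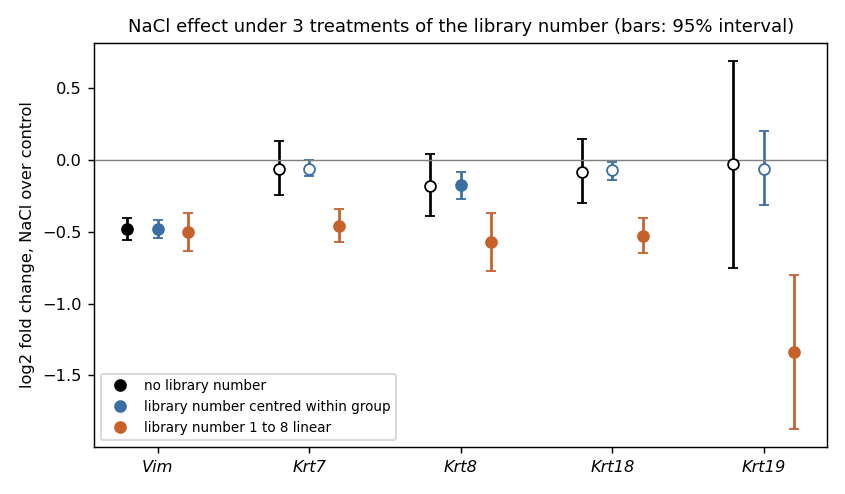
Log2 fold change of NaCl over control (vertical axis) for the 5 genes with no library number in the fit (black), with the number centred within its group (blue) and with the number as a line from 1 to 8 (orange); bars give 95% intervals and open points have an adjusted p of 0.05 or more. Vim stays near -0.48 in the 3 fits, and the keratins move down in the last, Krt19 to -1.34.

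The genes with the most similar pattern were found as those with the smallest root mean square difference in mean-centred log2 CPM over the 8 libraries, among 10110 candidate genes whose mean log2 CPM reached 3 or more. For Vim these were Tdrkh (0.033), Serpinb6a (0.037) and Plxnd1 (0.037). For Krt7 they were Dsg2 (0.025), Sbf2 (0.030) and Hs6st2 (0.033), and for Krt18 they were Hs6st2 (0.037), Dsg2 (0.037) and Ldhb (0.038). Krt18 was at place 10 in the order for Krt7, and Krt7 at place 7 in the order for Krt18 (0.043). Krt8 was at place 514 for Krt7 and at place 35 for Krt18. In the order for Krt8, Krt18 was at place 15 and Krt7 at place 92. Krt19 was at places 9533, 9566 and 9442 for Krt7, Krt8 and Krt18. In the order for Krt19 itself, Krt18, Krt7 and Krt8 were at places 199, 212 and 469. The values were centred but not scaled, so a gene with a wide spread lies far from genes with a narrow one. The nearest genes to Krt8 were S100a1 (0.040), Mboat2 (0.053) and Lrp2 (0.056). The nearest genes to Krt19 were Gpi1 (0.068), Ankrd37 (0.068) and Eno1b (0.100).

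The table held 10 rows named Krt and a number, of the 50 such genes in the annotation, and 6 of the 10 were other keratins. Of those 6, 5 passed the expression filter. Of these, Krt80 was called lower, Krt4 was called higher, and Krt10, Krt13 and Krt79 did not pass. This is 2 of 5, where 34.1% of all tested genes were called. Krt80, a type II epithelial keratin, fell from 26.02 ± 0.8996 to 21.3 ± 1.02 CPM (n = 4 each). The log2 fold change was -0.29 (SE 0.059; edgeR adjusted p = 0.00133). All its control libraries lay above all its NaCl libraries, where the groups did not overlap, in either direction, for 33.4% of tested genes. The annotated antisense gene Gm35853 spans Krt80, but had at most 13 counts. Krt4, a type II keratin of stratified mucosal epithelium, was counted 3, 2, 9 and 2 times in control libraries 1 to 4 and 39, 15, 30 and 41 times in NaCl libraries 5 to 8. It rose from 0.0938 ± 0.0828 to 0.787 ± 0.325 CPM (n = 4 each), and the fitted log2 fold change was 3.04 (SE 0.530; edgeR adjusted p = 2.94e-04). The groups did not overlap, but the level was at most 1.09 CPM in any library. Krt4 passed the expression filter only through the NaCl libraries, where it is high, so its call and its place in the 2 of 5 rest on that filter, and it was not tested where at least 10 counts were asked of every library. Control library 3 lay above the other controls, and without it the value was 3.81. Krt10, Krt13 and Krt79 were below 2.5 CPM in every library. Krt15 had at most 15 counts and was not tested. None of the 5 tested genes had a slope along the library number past the threshold, where 13.2% of all tested genes did.

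Intermediate filament genes outside the keratins included several that were called lower, as Vim was. Of 14 such genes, 9 had a row, 8 were tested, 5 were called lower, 3 did not pass and none was called higher (median log2 fold change -0.42, against 0.0029 over all tested genes). Of all tested genes, 17.2% were called lower and 16.9% higher. Lmna, which encodes the A-type lamins of the nuclear envelope, fell from 489 ± 28.1 to 371 ± 13.8 CPM (n = 4 each; log2 fold change -0.40; edgeR adjusted p = 1.29e-06). Nes, which encodes nestin, a type VI protein that polymerises with vimentin, fell from 432 ± 20.6 to 317 ± 10.2 CPM (log2 fold change -0.45; edgeR adjusted p = 1.52e-07). At lower levels, Des (desmin, type III) fell from 3.23 ± 0.465 to 1.20 ± 0.204 CPM and Synm (synemin) from 4.82 ± 0.591 to 2.49 ± 0.257 CPM. Prph (peripherin, type III) fell from 4.76 ± 0.632 to 3.33 ± 0.258 CPM. The B-type lamin genes Lmnb1 (log2 fold change 0.05; edgeR adjusted p = 0.503) and Lmnb2 (-0.00; 0.981) did not pass, nor did Nefh (-0.30; 0.292). Slopes along the library number passed downwards for Lmnb1 and Lmnb2 and upwards for Nefh, against 6.22% and 6.95% of all tested genes.

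**Figure D5:**
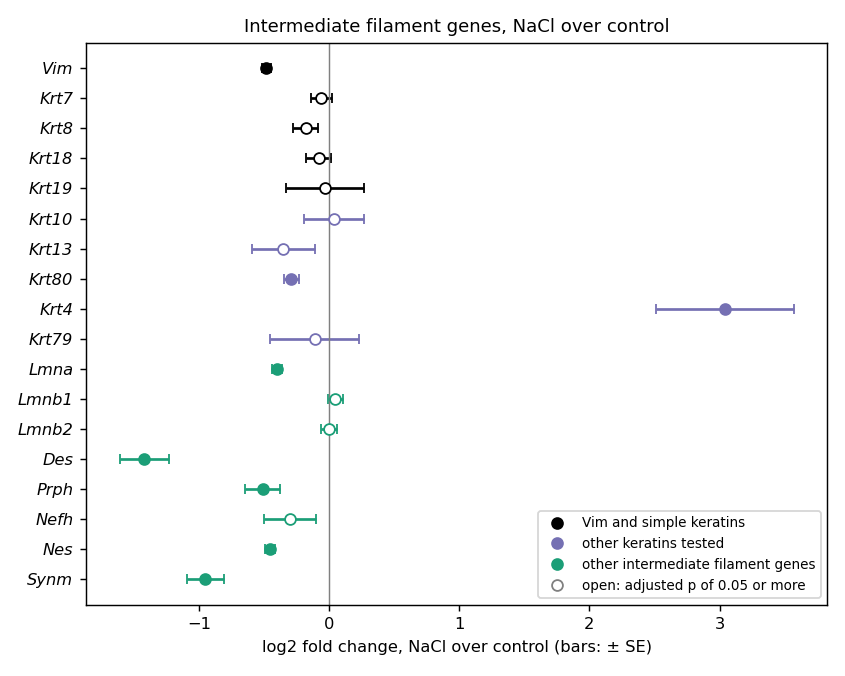
Log2 fold change of NaCl over control (horizontal axis, bars ± SE) for Vim and the 4 simple keratins (black), the other keratins tested (purple) and other intermediate filament genes tested (green); filled points have an adjusted p under 0.05. Vim (-0.48), Nes (-0.45) and Lmna (-0.40) lie together, Des has the lowest value (-1.42) and Krt4 the highest (3.04).

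Of 13 genes for proteins that tie filaments to junctions or to other filaments, 12 were tested, 3 were called higher, 2 lower and 7 did not pass (median log2 fold change -0.05). These are 5 of 12 called, where 34.1% of all tested genes were. Dsp, which encodes desmoplakin, the anchor of keratin filaments at desmosomes, rose from 13.1 ± 2.51 to 26.63 ± 1.996 CPM (n = 4 each; log2 fold change 1.03; edgeR adjusted p = 1.71e-05). Pkp1, a desmosomal plaque gene, fell from 14.1 ± 0.863 to 6.93 ± 0.651 CPM (log2 fold change -1.02; edgeR adjusted p = 2.29e-07). Itga6, which encodes an integrin subunit of hemidesmosomes, fell from 98.8 ± 0.993 to 58.1 ± 4.11 CPM (log2 fold change -0.76; edgeR adjusted p = 2.21e-09). Jup (0.31) and Macf1 (0.32) were the others called higher. Plec, which encodes the linker plectin, did not pass (log2 fold change -0.01, SE 0.039; edgeR adjusted p = 0.853). Slopes along the library number passed upwards for Ppl, Pkp3 and Itgb4 and downwards for Dsp, against 6.95% and 6.22% of all tested genes.

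Of 17 genes for kinases, chaperones, 14-3-3 proteins and other proteins that act on keratin or vimentin filaments, 3 were called higher, 6 lower and 8 did not pass (median log2 fold change -0.07), where 16.9% of all tested genes were called higher and 17.2% lower. Cryab, which encodes a small heat shock protein that binds intermediate filaments, rose from 111 ± 3.31 to 244 ± 16.7 CPM (n = 4 each; log2 fold change 1.14; edgeR adjusted p = 1.08e-11). Hspb1, of the same chaperone family, fell from 187.4 ± 10.48 to 167 ± 13.1 CPM (-0.17; edgeR adjusted p = 0.0252). Dnajb6, whose product is a chaperone of Krt18, rose by 0.09 on the log2 scale (edgeR adjusted p = 0.0389). Slopes along the library number passed downwards for 4 of the 17 genes and upwards for none, against 6.22% and 6.95% of all tested genes.

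Of 10 genes known to accompany Vim in mesenchymal cells, 2 were called higher, 4 lower and 4 did not pass (median log2 fold change 0.10), where 16.9% of all tested genes were called higher and 17.2% lower. Fn1, which encodes fibronectin, fell from 2978 ± 184 to 2070 ± 170 CPM (n = 4 each; log2 fold change -0.52; edgeR adjusted p = 3.45e-05), and Sparc (-0.21), Zeb2 (-0.20) and Snai1 (-0.37) fell as well. S100a4 rose from 42.5 ± 3.42 to 143 ± 4.56 CPM (1.75; edgeR adjusted p = 2.47e-13), and Cdh2, which encodes N-cadherin, rose from 115 ± 2.26 to 137 ± 2.21 CPM (0.25; 1.88e-05). Snai2 (0.12), Twist1 (0.18), Twist2 (0.16) and Zeb1 (0.08) did not pass. None of the 10 genes had a slope along the library number past the threshold, where 13.2% of all tested genes did.

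Of 10 epithelial identity genes, 7 were tested, 3 were called higher, none lower and 4 did not pass (median log2 fold change 0.12), against 16.9% higher and 17.2% lower over all tested genes. Esrp2, an epithelial splicing regulator, rose from 35.5 ± 3.27 to 45.7 ± 2.98 CPM (n = 4 each; edgeR adjusted p = 4.73e-04), and St14, a membrane serine protease, rose from 30.6 ± 3.597 to 38.3 ± 2.42 CPM (edgeR adjusted p = 0.00327). Cdh1, which encodes E-cadherin, rose from 0.195 ± 0.116 to 0.535 ± 0.170 CPM (edgeR adjusted p = 0.0254), a very low level in both groups. It passed the expression filter only through the NaCl libraries, where it is high, so its place among the 3 rests on that filter. Epcam, with 27.3 ± 3.18 and 28.2 ± 1.93 CPM, did not pass. Slopes along the library number passed upwards for 3 of the 7 (Epcam, Ovol1 and St14), where 6.95% of all tested genes did.

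The labelled cell type was compared with marker genes. In the counts that follow, 16.9% of all tested genes were called higher and 17.2% lower. Of 13 collecting duct markers, 10 were tested, 3 called higher and 4 lower, and the summed level was 901 to 1121 CPM in control libraries and 1717 to 1901 CPM in NaCl libraries, mostly from Cdh16 (640 ± 77.3 and 1380 ± 69.8 CPM; n = 4 each). Pax8 (log2 fold change 0.54) and Avpr2 (2.60, at a level near 0) were the others called higher. Avpr2 passed the expression filter only through the NaCl libraries, where it is high, so its place among the 3 rests on that filter. Tfcp2l1 (-0.38), Gata3 (-0.44), Scnn1g (-0.84) and Hoxb7 (-0.25) were called lower. The water channel gene Aqp2, which defines principal cells, was counted 0, 1, 3 and 0 times in control libraries and 12, 8, 15 and 14 times in NaCl libraries, so it was nearly absent. Of 10 fibroblast markers, 8 were tested, 2 called higher and 2 lower, with a summed level of 3199 to 3708 CPM in control libraries and 2900 to 3336 CPM in NaCl libraries. The largest part was Col1a1 (2492 ± 160 and 2148 ± 153 CPM; n = 4 each), which was called lower (log2 fold change -0.21; edgeR adjusted p = 0.00808), as was Pdgfra at a low level (-0.67; 0.0332). Pdgfrb (0.70; edgeR adjusted p = 1.08e-06) and Acta2 (0.28; 2.37e-04) were called higher, and Col3a1 (0.27; 0.112), Col1a2 (-0.09), Dcn (-0.09) and Postn (0.03) did not pass. Proximal tubule markers summed to between 152 and 203 CPM in any library, nearly all from Lrp2. Leukocyte markers summed to between 5.95 and 7.19 CPM in control and between 14.9 and 15.3 CPM in NaCl libraries. Ptprc alone rose (4.06 ± 0.346 to 13.5 ± 0.434 CPM; edgeR adjusted p = 5.91e-10), and Cd68, the other leukocyte marker tested, had 2.41 ± 0.342 and 1.69 ± 0.348 CPM (log2 fold change -0.51; edgeR adjusted p = 0.0573). Of 5 endothelial markers, 1 had a row in the table (Cdh5, at most 0.797 CPM). Of 6 intercalated cell markers, 1 had a row (Atp6v0d2, at most 2.22 CPM). Both were near 0, and the others in these lists had no row. Atp6v0d2, the intercalated cell marker tested, fell from 1.84 ± 0.32 to 0.326 ± 0.112 CPM (log2 fold change -2.48; edgeR adjusted p = 7.08e-06), but passed the expression filter only through the control libraries, where it is high. The part of any other cell type in the Vim level was not tested.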

How the data were processed

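The 5 members and the gene lists were chosen with earlier results of these data known. The authors deposited raw counts per gene and a normalized signal, which equals the raw count divided by 1 factor per library (0.864 to 1.145). Per the submitters' processing notes, mm10, Trim Galore 0.6.7, STAR and DESeq2 1.34.0 were used. The annotation, counting program and strandedness are not given in the sources used here.

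The whole count table was fitted with edgeR 4.0.16 under R 4.3.3. The filter (filterByExpr, minimum count 10) kept 14024 genes and removed 1264. TMM factors and a robust quasi-likelihood fit with group as the single term gave log2 fold changes, standard errors (the log2 fold change over the root of F) and Benjamini-Hochberg adjusted p-values, with a threshold of 0.05. Log2 CPM used a prior count of 2. The fit was tested on simulated data.

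The genes named were the 5 members, the other tested keratins, up to 3 called genes per list with the largest absolute change whose mean log2 CPM reached 3, and the 3 genes nearest to each member. Some genes this rule names are not reported here. Those of low level, those not called and list members beyond 3 were chosen after their values were seen. Alternatives included DESeq2 1.42.0, limma 3.58.1 and leaving out each library. Shared sequence was measured with blastn 2.17.0 on GENCODE M21 transcripts, which held 15274 of the identifiers. Promoter windows came from RefSeq, with 4 of 5 members matched.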

Additional observations from a re-analysis of the deposited data

Results flagged for a closer look

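In 24 groups of values, the highest and lowest libraries were compared with their neighbours (5 members, 5 other keratins and 2 ratios, in control and NaCl cells). A value that stood far apart was found in 2, where chance gives about 1.2, and in none of the 5 members. Krt4 had 0.218 CPM in control replicate 3, where the other controls had 0.0473 to 0.0629 CPM. Without that library, the highest control, its log2 fold change was larger, 3.81 in place of 3.04. Krt4 passed the expression filter only through the NaCl libraries, where it is high. Krt79 had 1.42 CPM in control replicate 4, where the other controls had 0.725 to 0.759 CPM.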

How the results depend on the processing

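The fall of Vim kept its direction under all 22 alternatives, with log2 fold changes from -0.50 to -0.45, and lost its call only against a fold change of 1.5. The number of members called was 1, and moved to 0 against a fold change of 1.5, to 2 with the library number centred within groups, to 5 with the number as a line from 1 to 8, and ranged from 1 to 2 when each library was left out. The number of genes called was 4789, and 3145 at a threshold of 0.01 and 328 against a fold change of 1.5. Leaving out each library gave log2 fold changes from -0.11 to 0.01 for Krt7 and from -0.19 to 0.15 for Krt19, with a change of sign without control replicate 4 for both and without control replicate 3, NaCl replicate 5 or NaCl replicate 6 for Krt19. For Krt8 the range was -0.25 to -0.12 and for Krt18 -0.15 to -0.01. The cause of these shifts was not tested. No paired analysis was possible because the groups share no replicate numbers. Depth does not limit the 5 members, and Krt4 rests on few counts.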
